A study of Rattus norvegicus with 10 samples.

Results

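Transcription termination site regions were the 236 of 8957 regions, in a table of CpG methylation in the rat hypothalamus, that the authors' annotation placed at the end of a transcript. Within that table they were set by the annotation alone. The table itself held only regions that differed by at least 1 percentage point between the groups compared, in these same animals. Methylation had been measured by reduced representation bisulfite sequencing, which reads CpG-rich restriction fragments, in the arcuate nucleus of 10 Wistar rat offspring. The study asked whether the diet of the father changed DNA methylation in the offspring. In the paternal HF group (5 offspring) the father had eaten a high-fat diet, and in the paternal chow group (5 offspring) he had eaten chow, with the diets starting after arrival on postnatal day 21. All mothers ate chow, litters were adjusted on postnatal day 2 to at most 8 pups, and the offspring of both groups were moved to the high-fat diet on postnatal day 35 and kept on it until postnatal day 70. Neither group was therefore one of chow-fed offspring. Litter, sire and sex of each animal were not stated, so the spread between animals may include littermates.

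The annotated end of a gene is where its RNA ends. For most coding genes the new RNA is cut and given a poly(A) tail at the end of the last exon. The RNA polymerase is displaced from the template after that, while histone, small nuclear and ribosomal RNA genes use other endings. Away from CpG islands most CpGs of the mammalian genome are methylated, including those over gene bodies and ends. CpG islands, which cover many gene starts, are mostly unmethylated, and in a compact stretch of genome the end of a gene can lie in the island of its neighbour.

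The 236 regions lay at the ends of 202 transcripts on 20 autosomes, with 31 on chromosome 1, 29 on chromosome 3, 23 on chromosome 7 and 21 on chromosome 10. No member lay on the X chromosome, which held 184 regions of the whole table. The ending transcript was protein-coding for 133 regions, a miRNA for 41, a long intergenic non-coding RNA (lincRNA) for 22, a ribosomal RNA for 21, a pseudogene for 11 and a small nuclear RNA for 4. The remaining 4 were 2 regions at antisense transcripts, 1 at a small Cajal body RNA and 1 at a processed transcript. Their median length was 69 bases and their median number of CpGs was 11.

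The annotation also names the nearest transcription start, which need not belong to the transcript that ends. The nearest start was that of the ending transcript itself for 131 regions. It belonged to another transcript within 1000 bases for 52 regions, and to another transcript farther away for 53. For short RNAs the end and the start are close together, and all 41 miRNA ends lay within 1000 bases of a start. Regions labelled as ends could still lie well past the start of a short RNA gene, by 668 bases at Mir2964 and 1106 at a U1 copy. The label thus does not place a region at the last bases of the RNA. A region is called here by its nearest gene, with the ending gene given where it is another one, and positions are those of the authors' table, whose genome build is not given in the sources used here. The paternal HF animals were named 22HFB, 22HFR, 24HFB, 26HFB and 28HFB and the chow animals 2HFB, 4HFB, 6HFBB, 6HFB and 8HFB, and lists of values follow this order. Levels came without read depth, so errors are SDs or SEs over animals.

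Of the 10 miRNA genes that had an end region and a gene symbol of their own, 9 matched RefSeq (assembly GRCr8), with 13 mature sequences and 13 distinct seeds. No seed was shared by a pair of them. The mature RNAs of the genes whose end regions had several CpG stretches in the table are shown, 5′ to 3′, with the seed, bases 2 to 8 through which a miRNA pairs with its targets, in capitals.
rno-miR-219b (Mir2964): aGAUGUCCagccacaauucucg
rno-miR-935 (Mir935): cCAGUUACcgcuuccgcuaccgc
rno-miR-760-3p (Mir760): cGGCUCUGggucugugggga
rno-miR-760-5p (Mir760): cCCCUCAGgccaccagagcccg
rno-miR-3574 (Mir3574): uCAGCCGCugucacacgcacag

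Usp21, Thap3 and Sac3d1 are examples of genes with another transcript's end region within 1000 bases of their start. At each of these regions the paternal groups did not overlap, so these genes need not represent all such genes. Their RefSeq promoters (GRCr8, from 250 bases before to 50 bases after the start, all on the minus strand and written in the direction of transcription) are shown with every CpG in capitals. In the authors' annotation the end regions lay 274, 406 and 188 bases after the nearest start. The Sac3d1 region is 395 bases long and may reach into its window. Where the regions lie relative to these windows was not computed, because the build of their positions is not given.
Usp21 promoter: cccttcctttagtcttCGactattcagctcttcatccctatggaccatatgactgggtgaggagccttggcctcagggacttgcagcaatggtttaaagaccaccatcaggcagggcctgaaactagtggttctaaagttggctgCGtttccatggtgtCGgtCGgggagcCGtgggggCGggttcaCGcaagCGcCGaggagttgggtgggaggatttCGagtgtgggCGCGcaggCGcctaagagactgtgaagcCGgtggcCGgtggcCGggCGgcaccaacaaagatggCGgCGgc
Thap3 promoter: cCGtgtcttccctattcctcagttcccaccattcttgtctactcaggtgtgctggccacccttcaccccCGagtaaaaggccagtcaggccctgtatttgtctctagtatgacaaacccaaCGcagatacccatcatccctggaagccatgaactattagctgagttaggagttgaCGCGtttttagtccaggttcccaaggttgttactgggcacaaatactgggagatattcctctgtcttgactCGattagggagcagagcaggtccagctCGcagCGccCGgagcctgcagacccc
Sac3d1 promoter: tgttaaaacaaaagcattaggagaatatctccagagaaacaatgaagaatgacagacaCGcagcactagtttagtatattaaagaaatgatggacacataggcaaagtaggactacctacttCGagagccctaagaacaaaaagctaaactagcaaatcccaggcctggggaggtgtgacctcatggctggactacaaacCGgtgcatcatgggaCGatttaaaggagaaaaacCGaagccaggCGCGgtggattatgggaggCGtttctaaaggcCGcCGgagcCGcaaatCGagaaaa

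The motif counted was CG, which reads the same on both strands. The Usp21 window held 19 CpGs, the Sac3d1 window 12 and the Thap3 window 9, against a median of 7 over 27457 rat promoters of the same length. At least as many CpGs as in these windows were found in 27.99% of all promoters for Usp21, 39.8% for Sac3d1 and 46.8% for Thap3. Across all genes with another transcript's end region within 1000 bases of their start, 38 of 47 matched a RefSeq promoter and these had a median of 19 CpGs. The median was alike for genes whose start lay farther from another transcript's end (20 CpGs, 31 of 47 matched) and for coding genes with an end region and their own start nearest (18 CpGs, 29 of 47 matched). The count is a description of these windows and says nothing of binding there.

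Among the deposited regions, the median level of transcript ends was above that of every other annotated class. The level of a region, as its mean over the 10 animals, had a median of 3.25% over the 236 ends (quartiles 1.94% and 12.7%), against 2.27% over all 8957 regions. The median was 2.07% for promoters, 2.51% for exons, 2.35% for introns and 2.49% for intergenic regions. A level above 20% was found at 46 ends (19.5%), against 7.93% of all regions and 2.24% of promoter regions. The distribution had a large low part and a long tail, with 138 ends at or under 5%, 52 between 5% and 20%, 37 between 20% and 80% and 9 above 80%. These are descriptions of regions that share the same 10 animals, and no test was made between classes. Every class held only regions kept for a difference between the paternal groups, so the levels are not those of ends or promoters in general.

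The levels of the ends differed with the start that lay nearest to them. Ends within 1000 bases of the start of another transcript had a median of 2.12%, and none of the 52 exceeded 20%. Ends farther than 1000 bases from another transcript's start had a median of 11.0%, and 43.4% of the 53 exceeded 20%. Ends of coding transcripts whose own start was nearest had a median of 6.31% (50 regions). The ends of miRNA genes had a median of 2.15% (41 regions) and those of ribosomal RNA copies 12.5% (21 regions). With regions split at 1000 bases from a start, the ends had the higher median in both bands. Within 1000 bases of a start the median was 2.42% for ends and 2.10% for the rest, and beyond 1000 bases it was 6.64% for ends and 3.02% for the rest. Distances within a band were not matched. The median distance was 360 bases for ends and 192 for the rest in the near band. In the far band it was 3853 and 8983 bases.

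**Figure D1:**
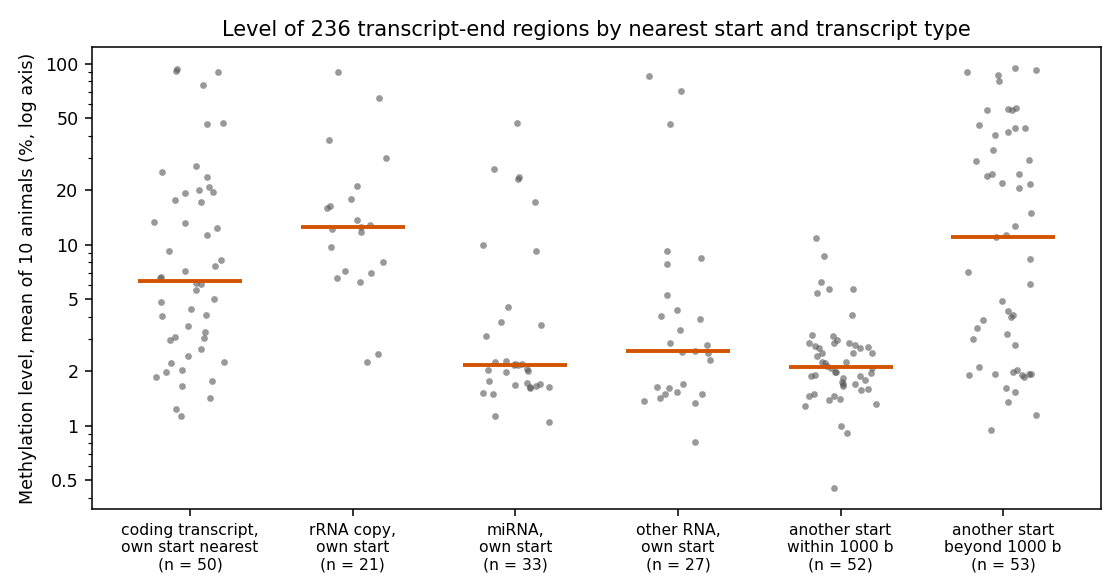
Methylation level of each of the 236 transcript-end regions (points, mean of 10 animals, percent, log axis), split by the nearest start and the type of the ending transcript. Orange lines are medians: 6.31% for coding transcripts with their own start nearest, 12.5% for ribosomal RNA copies, 2.12% with another start within 1000 bases and 11.0% with one farther away.

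For 37 genes the table held both an end region and a promoter region named for the same gene. The end had the higher level in 22 of them, with a median of 3.59% at the ends and 2.24% at the promoters. The mean difference between paternal groups had the same direction at both places in 22 genes, 20 of them higher in paternal HF at both, and the opposite direction in 15. Since 71.0% of all regions were higher in paternal HF, these counts alone show no link between end and promoter.

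No transcript end passed the test between the paternal diets. With limma across all 8957 regions and Benjamini-Hochberg adjustment, 0 of 236 ends had an adjusted p below 0.05, beside 0% of all regions, and the lowest adjusted p was 0.235 over the ends and over the table. At an unadjusted limma p below 0.05 there were 46 ends, or 19.5%, beside 20.9% of all regions. By an exact two-sided permutation test per region, with 252 arrangements, 56 ends had an unadjusted p below 0.05 (23.7%, beside 24.8% of all regions) and 0 passed after adjustment over the table. The authors' deposited table gave 1 end a q-value below 0.05, which is 0.424% of the ends beside 0.848% of all regions. The authors had kept a region only where their own group difference was at least 1 percentage point and it held at least 10 CpGs, on these same animals, so none of these shares is independent evidence of a difference.

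The mean was higher in paternal HF at 167 of the 236 ends, or 70.8%, beside 71.0% of all regions. The 46 ends at an unadjusted p below 0.05 comprised 32 with a higher mean in paternal HF (13.6%, beside 16.4% of all regions) and 14 with a lower one (5.93%, beside 4.52%). The paternal groups did not overlap at 10 ends (4.24%, beside 5.15% of all regions), 8 of them higher (3.39%, beside 3.93%) and 2 lower (0.847%, beside 1.22%). The ends thus took about the share of the whole table under each of these rules. A difference of at least 5 percentage points was seen at 33 ends, 27 higher and 6 lower, or 14.0% beside 6.59% of all regions. By level, it was seen at 75.7% of the ends and 64.4% of all regions at 20% to 80%. The shares were 9.62% and 16.3% at 5% to 20%, 0% and 0.496% up to 5%, and 0% and 15.3% above 80%. The reason for the larger share over all ends was not tested. At levels up to 5% the mean was higher in paternal HF at 98 of 138 ends, at 5% to 20% at 36 of 52, at 20% to 80% at 30 of 37 and above 80% at 3 of 9. Over all regions the same counts were 5090 of 7260, 729 of 987, 464 of 579 and 74 of 131.

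**Figure D2:**
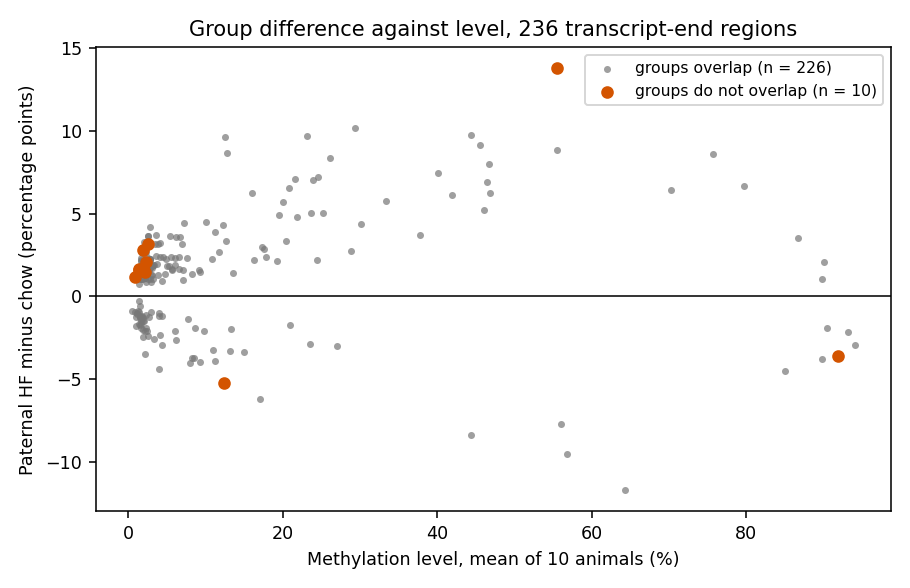
Difference between the group means (paternal HF minus chow, percentage points) against the mean level over 10 animals (percent) for the 236 transcript-end regions. Orange points are the 10 regions whose groups did not overlap; the differences ran from -11.7 points at a 5S_rRNA copy to 13.8 points beside LOC102550505.

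Per animal, the median level over the ends was 3.95%, 5.83%, 4.11%, 4.61% and 3.98% in paternal HF (4.49% ± 0.79, SD, n = 5). It was 2.93%, 3.55%, 2.92%, 3.74% and 2.72% in paternal chow (3.17% ± 0.44, SD, n = 5). Every paternal HF animal lay above every chow animal on this median, as was also so over the other 8721 regions. The mean level, which the highly methylated ends dominate, was 13.72% ± 0.81 against 12.32% ± 0.82 (SD, n = 5 each), and here the groups overlapped. The arcuate nucleus was sampled as bulk tissue, so a different mix of cells and a different level within cells cannot be told apart. No end region was named for a gene of the oligodendrocyte, astrocyte and tanycyte, microglia, vessel and blood, or neuron marker lists, and their part in these levels was not tested.

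**Figure D3:**
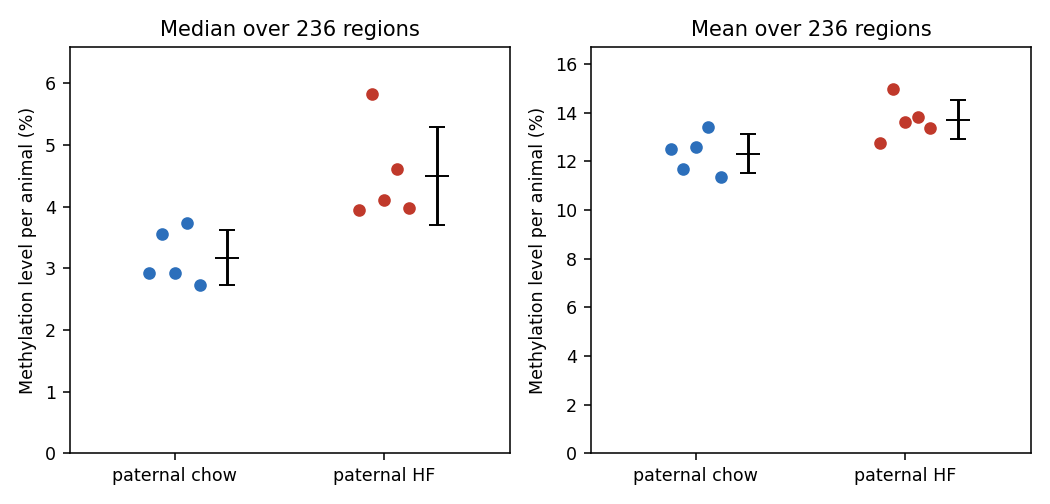
Median (left) and mean (right) methylation level over the 236 transcript-end regions in each animal (points, percent), with the group mean ± SD beside them (black, n = 5 per group). The medians of the paternal HF animals sit at 3.95% to 5.83%, above 2.72% to 3.74% in paternal chow, while the means overlap.

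The end of the lincRNA AABR07045086.1 was the one that the authors' deposited table called, with q = 1.14e-05. The region (chromosome 20, 33772079 to 33772471) held 37 CpGs and lay 27585 bases after the transcript's own start. Its level was 5.01%, 4.63%, 3.27%, 3.93% and 3.61% in the paternal HF animals, and 0.465%, 1.38%, 1.27%, 0.634% and 1.02% in the chow animals. All 5 paternal HF animals lay above all 5 chow animals. The means were 4.09% ± 0.72 and 0.953% ± 0.395 (SD, n = 5 each), a difference of 3.14 percentage points (SE 0.782, limma unadjusted p = 0.00129, adjusted p = 0.235). The exact permutation p of 0.00794 is the smallest that 5 against 5 animals can give. Another end region of this lincRNA, with 10 CpGs at 33772662 to 33772719, was at 3.08% ± 1.44 against 2.03% ± 0.66 (SD, n = 5 each), and the groups overlapped, and its difference went from 1.05 to 0.515 points without animal 22HFR.

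Of the ends near the start of a coding neighbour, Sac3d1, named for a SAC3 domain protein, had the lowest unadjusted p. The region (chromosome 1, 221486247 to 221486642, 18 CpGs) was at 3.20%, 1.35%, 4.78%, 3.13% and 3.93% in paternal HF and at 0.198%, 0%, 1.33%, 0.505% and 0.383% in chow. The groups did not overlap, although the lowest paternal HF animal and the highest chow animal nearly met. The difference was 2.79 points (SE 0.784, limma unadjusted p = 0.00311, adjusted p = 0.235).

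The end of Ufc1, which encodes the conjugating enzyme of the ubiquitin-like protein UFM1, lay within Usp21, the gene of a deubiquitinating enzyme that acts on histone H2A. In RefSeq these genes are adjacent and both on the minus strand, the order in which one gene's end meets the next gene's start. The region (chromosome 13, 89660747 to 89661004, 13 CpGs) was at 1.30%, 3.83%, 2.45%, 0.938% and 2.36% in paternal HF. It was at 0.256%, 0.592%, 0.935%, 0.528% and 0.702% in chow. All paternal HF animals lay above the chow animals, the closest by a few thousandths of a percentage point. The difference was 1.57 points (SE 0.631, limma unadjusted p = 0.0257, adjusted p = 0.235).

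Phf13, a chromatin reader of trimethylated histone H3 lysine 4, and Thap3, a zinc finger protein, had the same arrangement. The Phf13 end (chromosome 5, 169160455 to 169160706, 12 CpGs) was at 2.00%, 3.50%, 2.64%, 2.87% and 3.36% in paternal HF and at 1.63%, 0.650%, 1.62%, 1.64% and 1.52% in chow. The groups did not overlap, and 4 of the chow animals lay within a narrow band. The difference was 1.46 points (SE 0.730, limma unadjusted p = 0.0651, adjusted p = 0.235). At the start of Phf13 itself the table held 4 promoter regions, of which 2 were higher in paternal HF and 2 lower on the mean. The authors' deposited table gave 1 of those 4, with 37 CpGs and 49 bases after the start, q = 0.00686.

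The other low ends without overlap were those beside RGD1308134 (2.17% ± 0.89 against 0.533% ± 0.318), AC115420.2 (3.29% ± 1.51 against 1.22% ± 0.34) and a U1 small nuclear RNA copy (1.33% ± 0.79 against 0.160% ± 0.186, with n = 4 in chow). SDs are over 5 animals otherwise. All 3 were higher in paternal HF. At the neighbouring end regions of RGD1308134 and of the U1 copy the groups overlapped, and at the U1 copy the mean was lower in paternal HF there (0.922% against 2.08%, and -0.647 points instead of -1.16 without animal 4HFB). Msc, a basic helix-loop-helix transcription factor, also had 2 end regions of 1 lincRNA near its start with opposite signs. The first differed by 3.66 points (2.32 without animal 22HFB) and the second by -1.29 points (-0.223 without animal 4HFB).

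**Figure D4:**
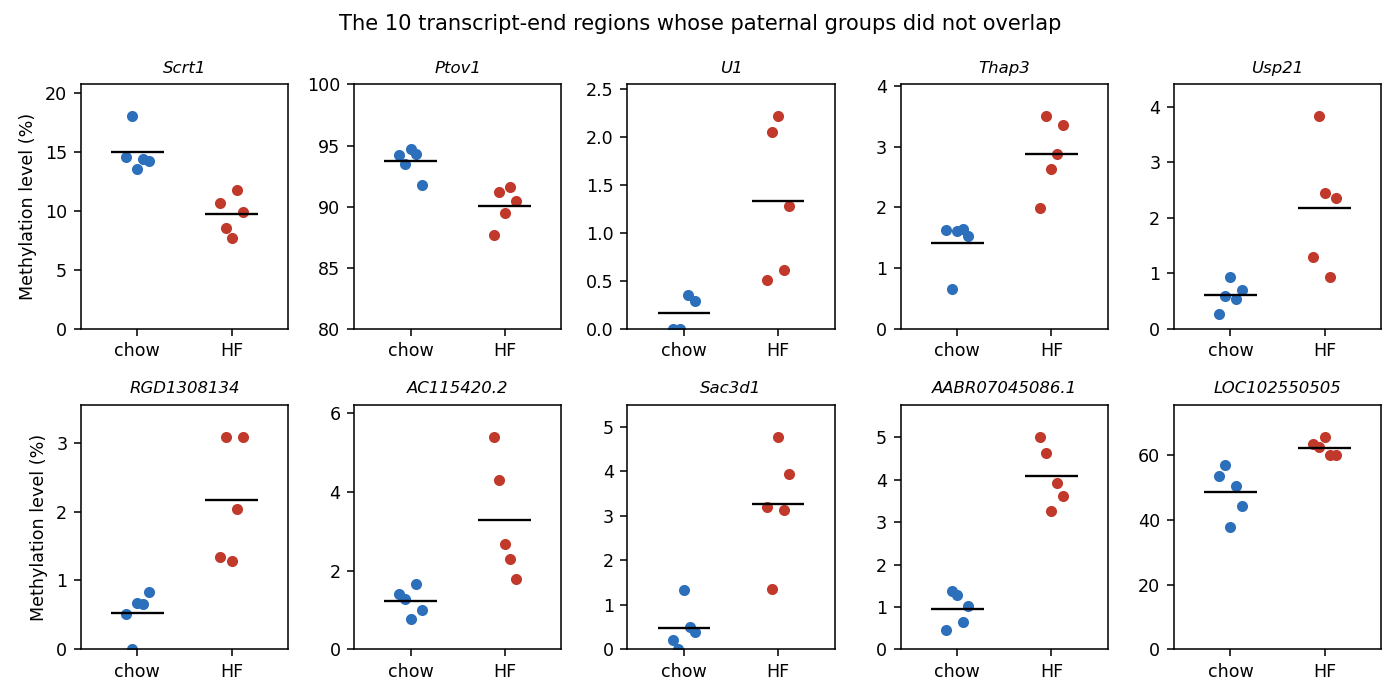
Methylation level (percent) of each animal at the 10 transcript-end regions whose paternal groups did not overlap, ordered from the lowest to the highest difference and titled by the nearest gene. Points are animals and black lines are group means; the axis starts at 0 except for Ptov1, which runs from 80% to 100%. Scrt1 and Ptov1 are lower in paternal HF and the other 8 are higher.

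Ends with intermediate methylation gave the largest differences. The region beside LOC102550505 (chromosome 7, 115828001 to 115828027, 10 CpGs), the end of the processed transcript AABR07058422.1, was at 63.3%, 62.5%, 65.6%, 60.2% and 60.1% in paternal HF. In chow it was at 53.6%, 56.9%, 37.8%, 50.4% and 44.2%. The paternal HF animals lay close together and above every chow animal. The difference was 13.8 points (SE 3.93, limma unadjusted p = 0.00350, adjusted p = 0.235). A promoter region of AABR07058422.1 was at 64.6% ± 10.1 (SD, n = 5) against 53.3% ± 12.3 (SD, n = 4), with overlapping groups.

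The end of Upf1, the helicase at the centre of nonsense-mediated decay of mRNA, was also higher in paternal HF (chromosome 16, 20845827 to 20845873, 13 CpGs). Its level was 36.4%, 42.4%, 39.9%, 26.1% and 27.8% against 21.3%, 26.9%, 22.5%, 27.8% and 23.2% in chow. Animals 26HFB and 28HFB lay among the chow animals, and the other 3 above all of them. The difference was 10.2 points (SE 3.69, limma unadjusted p = 0.0155, adjusted p = 0.235). Another end region for which Upf1 was the nearest start lay on the same chromosome at 20845006 to 20845052 and was at 2.29% ± 1.80 against 0.928% ± 0.675.

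Hcn2, a pacemaker channel that opens on hyperpolarisation, ended in a region of intermediate level next to Polrmt, the mitochondrial RNA polymerase. This end (chromosome 7, 12851755 to 12851795, 10 CpGs) was at 50.2%, 59.6%, 50.2%, 50.8% and 50.4% in paternal HF and at 58.5%, 62.1%, 56.9%, 64.0% and 58.3% in chow. Only animal 22HFR of the paternal HF group lay among the chow animals. The difference was -7.73 points (SE 3.31, limma unadjusted p = 0.0350, adjusted p = 0.235). Within Hcn2 the table also held an exon and an intron region, at 1.07% and 3.40% over all animals, and both means were higher in paternal HF.

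Scrt1, a zinc finger repressor made in newly formed neurons, had the clearest separation among the ends that were lower in paternal HF. The region (chromosome 7, 117583113 to 117583387, 18 CpGs) lay 3853 bases after the gene's own start. It was at 10.6%, 8.53%, 7.68%, 11.8% and 9.89% in paternal HF and at 14.6%, 18.0%, 13.6%, 14.4% and 14.3% in chow. Every paternal HF animal lay below every chow animal. The difference was -5.26 points (SE 1.59, limma unadjusted p = 0.00528, adjusted p = 0.235).

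The end region nearest to Ptov1 was among the most methylated ones. It was at 87.7%, 91.2%, 89.4%, 91.6% and 90.4% in paternal HF and at 94.3%, 93.5%, 94.7%, 94.3% and 91.7% in chow. The groups did not overlap but nearly met. The difference was -3.63 points (SE 1.33, limma unadjusted p = 0.0161, adjusted p = 0.235). The most methylated end of all lay near Tpst2, a tyrosylprotein sulfotransferase, at 92.6% ± 1.5 against 95.6% ± 2.0, with overlapping groups. Of the 9 ends above 80%, 6 had a lower mean in paternal HF.

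The end of Sdk2, a cell adhesion protein of synapses, was also intermediate, with a lower mean in paternal HF. So was another transcript's end more than 1000 bases before the start of Mrps23, a protein of the mitochondrial ribosome. The region near Mrps23 was at 40.1% ± 4.7 against 48.5% ± 5.0 (SD, n = 5 each). The end of Sdk2 was at 52.7% ± 9.9 against 62.2% ± 8.8 (n = 5 and 4), and its difference of -9.52 points became -5.17 without animal 22HFB. The region near Cbarp, a regulator of voltage-gated calcium channels, went the other way, with 49.2% ± 7.4 against 39.5% ± 10.3, and its 9.74 points became 6.19 without animal 6HFBB. The ends of Rhof, a small GTPase, and of the lincRNA AABR07026991.1, both of intermediate level, were higher by 6.25 and 6.93 points with overlapping groups.

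Ribosomal RNA copies made up 21 ends, at 11 annotated 5.8S and 1 annotated 5S transcript. These RNAs are parts of the ribosome and their genes are repeated, so reads of near-identical copies can be assigned to any of them and the values per copy are uncertain. The 19 regions at 5.8S copies had a median level of 12.2%. The mean was higher in paternal HF at 15 of them, beside 71.0% of all regions. None of the 21 showed separate groups, and 2 had an unadjusted p below 0.05 (9.52%, beside 20.9% of all regions).

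The copy on chromosome 9 had 4 end regions, all higher in paternal HF. Its region at 7466997 to 7467021 was at 17.7%, 29.3%, 17.0%, 11.0% and 11.4% in paternal HF and at 7.62%, 6.45%, 11.8%, 7.54% and 4.90% in chow. The highest chow animal lay above 2 paternal HF animals. The difference was 9.64 points (limma unadjusted p = 0.00610, adjusted p = 0.235). The other 3 regions differed by 3.57, 4.36 and 3.69 points, and the last 2 became 2.46 without animal 2HFB and 0.827 without animal 24HFB. Over these 4 regions the level was higher with distance from the start, from 6.24% to 37.8%, in both groups.

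The copy on chromosome 2 also had 4 end regions but no common direction. The differences were 1.40, 1.01, 2.70 and -2.12 points, each within the spread between animals, and leaving out a single animal moved each by more than 1.5 times and turned the sign of 2 of them. The copy on chromosome 7 had 2 regions, both higher in paternal HF, by 8.67 points (4.87 without animal 22HFR) and 3.16 points. The 5S copy on chromosome 19 had 2 regions that were highly methylated and lower in paternal HF. They were at 58.5% ± 10.6 against 70.2% ± 11.1 and at 87.9% ± 5.2 against 91.7% ± 4.6 (SD, n = 5 each), and the groups overlapped.

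Among the miRNA ends, the mean was higher in paternal HF at 32 of 41 (78.0%, beside 71.0% of all regions). An unadjusted limma p below 0.05 was found at 8 (19.5%, beside 20.9% of all regions), 6 higher and 2 lower. Mir2964, whose mature product in RefSeq is the miR-219b shown above, stood at a much higher level than most. In RefSeq it lies beside Mir219-2, whose product miR-219 is known in mice to promote the maturation of oligodendrocytes. Its 3 end regions on chromosome 3 all had a higher mean in paternal HF.

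The region 175 bases after the Mir2964 start (8407571 to 8407633) was at 55.3%, 48.6%, 52.2%, 50.2% and 47.3% in paternal HF and at 46.4%, 44.9%, 47.9%, 46.6% and 27.8% in chow. Animal 8HFB stood far below the rest, and the difference of 8.00 points became 4.27 without it. The region 370 bases after the start was at 25.6%, 29.1%, 23.0%, 27.8% and 25.5% against 20.6%, 25.3%, 21.3%, 18.7% and 19.998%, a difference of 5.02 points (SE 2.499). Here 1 chow animal lay among the paternal HF animals. The region 668 bases after the start differed by 8.36 points, or 5.50 without animal 24HFB. The 3 unadjusted limma p were 0.0836, 0.0643 and 0.0884.

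Both end regions of Mir935 were low and had a lower mean in paternal HF. The first (chromosome 1, 64330357 to 64330404) was at 0.932%, 0.850%, 1.22%, 0.794% and 0.274% in paternal HF and at 2.95%, 0.855%, 3.54%, 3.10% and 1.98% in chow. Only animal 4HFB of the chow group lay among the paternal HF animals. The difference was -1.67 points (SE 0.688, limma unadjusted p = 0.0291, adjusted p = 0.235). The neighbouring region, 340 bases after the start, was at 0.257% ± 0.366 (n = 5) against 2.04% ± 1.81 (n = 4), and its difference of -1.79 points became -1.04 without animal 6HFB.

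The unnamed miRNA AC131537.4 on chromosome 10 was at 5.45% ± 2.33 against 1.74% ± 1.47 (SD, n = 5 each, limma unadjusted p = 0.00898, adjusted p = 0.235), with overlapping groups. Its promoter region had a higher mean in paternal HF too, at 2.94% ± 3.08 against 0.765% ± 0.333. The miRNA AABR07063425.1 was at 27.9% ± 10.2 against 18.2% ± 7.9. Mir124-3, a gene of the neuron-enriched miR-124 that was picked here after its values were seen, was at 2.77% ± 1.93 against 0.602% ± 0.540 (SD, n = 5 each) with an unadjusted limma p of 0.0295, and its groups overlapped. Over the 2 promoter regions of Mir124-3 the direction was opposite, with a mean difference of -3.03 points. The 2 end regions each of Mir760 and Mir3574 were at 0.948% to 4.03% in the group means, with opposite signs at Mir760 and higher means in paternal HF at both regions of Mir3574.

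**Figure D5:**
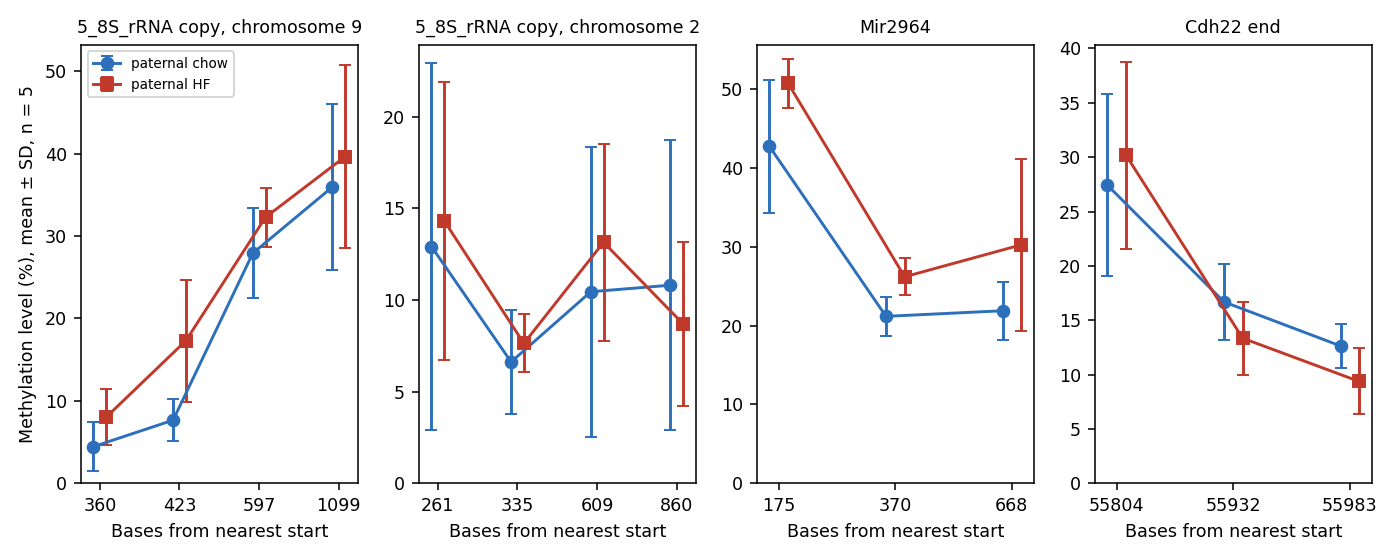
Group mean ± SD (n = 5 per group) of the methylation level (percent) at 4 transcripts that had 3 or 4 end regions. Regions are in order of distance from the nearest start (bases, evenly spaced and not to scale); paternal HF is above chow at every region of the chromosome 9 5_8S_rRNA copy and of Mir2964, and crosses it at the chromosome 2 copy and at the Cdh22 end.

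Altogether 28 transcripts had at least 2 end regions, 62 regions in all. The means had the same direction at every region of 16 of them, with 12 all higher and 4 all lower in paternal HF, and mixed directions at 12. With 71.0% of all regions higher in paternal HF, a shared direction alone shows no link between regions. The 3 regions at the end of Cdh22, a cadherin of the brain, whose nearest listed start was that of the immune receptor gene Cd40, lay within 296 bases. The one with the highest level differed by 2.75 points, which was -0.0962 without animal 4HFB, and the others by -3.34 points (-2.18 without animal 2HFB) and -3.27 points. Slc12a5, the chloride exporter KCC2 of mature neurons, was also picked after its values were seen. Its 2 end regions were at 6.34% ± 3.40 against 10.1% ± 1.6 and at 7.26% ± 4.10 against 11.2% ± 1.2 (SD, n = 5 each). The groups overlapped, and the unadjusted limma p were 0.0428 and 0.0489. A promoter region of Slc12a5 had the opposite direction, with a mean higher in paternal HF by 1.27 points.

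The remaining coding and lincRNA ends with the smallest p were all low and had a higher mean in paternal HF with overlapping groups. Near Wdr6, a WD-repeat protein, the level was 3.74% ± 2.55 against 0.459% ± 0.493, and at the end of Slc25a16, a mitochondrial carrier, it was 3.23% ± 1.75 against 0.622% ± 0.786. At the end of Nkx2-3, a homeobox factor, it was 8.45% ± 1.54 against 4.83% ± 1.82. At the end of Trnp1, a nuclear protein of neural progenitors, it was 5.68% ± 1.41 against 2.47% ± 1.85, and near Nectin3, a cell adhesion molecule, 4.35% ± 3.07 against 0.693% ± 0.753. Each group had n = 5 and the unadjusted limma p ran from 0.0104 near Wdr6 to 0.0136 near Nectin3. In Trnp1 an exon and a promoter region also had higher means in paternal HF, by 1.273 and 1.495 points. Elsewhere an end region and another region of its ending or nearest gene had opposite signs. The end of Ufc1 differed by 1.57 points and an intron region of Ufc1 by -1.75 points (2.06% against 3.82%). The end of Sdk2 was lower and its promoter region higher (2.324% against 1.145%), and the end near Ptov1 was lower and an intron region of Ptov1 higher (2.25% against 0.952%).

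The listed genes of the machinery that makes transcript ends had no end region of their own in the table. The list held 44 symbols of 3′ end processing and termination, such as the cleavage factors. It covers fewer genes, since Pnuts is an alias of Ppp1r10 and Spt5 of Supt5h. Of these symbols 0 had an end region, while 17 had 33 regions elsewhere in the table. Of those 33, 22 had a higher and 11 a lower mean in paternal HF, beside 71.0% of all regions with a higher one. An unadjusted limma p below 0.05 was found at 6 (beside 20.9% of all regions) and 0 passed the adjusted test. None of the 41 genes of the imprinted list and none of the 55 genes of the DNA methylation and chromatin list had an end region; the latter list does not hold every chromatin gene, and Phf13, described above, is not on it.

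Of 50 appetite neuropeptides and receptors, 1 had an end region, Ucn, the gene of urocortin, a peptide of the corticotropin-releasing family that reduces food intake. It was at 5.80%, 10.4%, 4.26%, 5.31% and 3.90% in paternal HF and at 3.87%, 3.49%, 2.99%, 4.21% and 5.87% in chow. The groups overlapped, and the difference of 1.84 points became 0.733 without animal 22HFR. Of 53 genes of leptin, insulin and lipid signalling, 1 had an end region beside it. Lpl, the lipase that frees fatty acids from lipoproteins, lay next to a lincRNA end at 6.47% ± 4.26 against 4.84% ± 2.04 (SD, n = 5 each), and its 1.63 points became 0.223 without animal 24HFB.

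Among the ion channel and synapse genes with an end region were Hcn2, described above, Nrxn2 and Shank3, which are not the whole list, so no count of directions is given. The end of a Nrxn2 transcript, a presynaptic adhesion protein, was at 25.5% ± 4.2 against 28.5% ± 3.6, and its -2.98 points became -1.63 without animal 22HFB. The lincRNA end beside Shank3, a postsynaptic scaffold, was at 1.21% ± 0.96 against 2.54% ± 1.61, and its -1.33 points became -0.649 without animal 4HFB.

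Of 47 hypothalamic transcription factors, 3 had an end region, of which 2 were higher in paternal HF and 1 lower on the mean. The end of Nkx2-2, a homeobox factor of the ventral neural tube, was at 16.7%, 10.2%, 22.9%, 5.67% and 14.5% in paternal HF and at 18.5%, 19.1%, 22.3%, 26.1% and 14.98% in chow. The groups overlapped widely, and the difference of -6.20 points became -4.12 without animal 26HFB. The end of Tbx2, a T-box repressor, was at 2.62% ± 0.78 against 1.43% ± 0.58. The end of Dlx1, a homeobox factor of inhibitory neurons, was at 8.99% ± 0.82 against 7.61% ± 1.45 (SD, n = 5 each). The unadjusted limma p of these 3 ran from 0.0683 to 0.279.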

How the data were processed

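Zymo-Seq libraries were made from arcuate nucleus DNA, per the labels' protocols. The submitters' processing notes name Trim Galore, Bismark and Bowtie, and the regions were called with metilene, per the file headers. Not given in the sources used here are the genome build, any coverage filter, the settings of metilene and whether positions count from 0 or 1. For each region the deposited table holds the methylation fraction per animal, the authors' group mean fractions and their difference (a score), q-values and p-values, the CpG count, and the distance score and annotation of the nearest start. Every deposited region held at least 10 CpGs and an absolute difference of at least 1 percentage point. Read counts and coverage were not used here, so depth, and with it the precision of a single level, is unknown. Fractions were multiplied to percent, and 7 of the 2360 levels of the ends were missing and left out of the fit for that animal. Directions are those of the animals' means, and at 1 end the authors' deposited difference had the opposite sign.

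The regions are those annotated as transcript ends. The members and gene lists were chosen with earlier results of these data known. Headers tie each column to a paternal group but to no sample title, so columns were used as 5 replicates per group without numbers. Levels of all 8957 regions were fitted with limma 3.58.1 in R 4.3.3, using moderated variances that follow a trend with level, with Benjamini-Hochberg adjustment over all regions at 0.05, and the step was tested on simulated data. Single regions were also compared by two-sided exact permutation over animals. Named ends were those with a deposited q below 0.05, the 12 smallest unadjusted p, those without overlap between groups, the 5 largest differences in each direction, the 3 highest levels and the 3 nearest 50%, list members, and 10 transcripts with several end regions; 58 regions resulted, of which 1 is not reported here. Alternatives were a logit scale (offset 0.01), robust and untrended variance, autosomes only, at least 15 CpGs, complete levels only, a mean level of at least 5%, averaging columns whose names start with the same number, and dropping each animal in turn. Sequences are from RefSeq (GRCr8). Python 3.11.15, pandas 2.3.3 and matplotlib 3.10.9 were used.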

Additional observations from a re-analysis of the deposited data

Results flagged for a closer look

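In 10 groups of 5 animals at named ends, 1 animal stood apart from the other 4 by Dixon's criterion at 95%. Chance alone meets it in about 1 group in 20. With 58 named ends and both paternal groups at each, several such flags would arise by chance. In the paternal HF group, animal 22HFB was low at the end of Sdk2 near AABR07030729.1 (35.2%) and at the first Cdh22 end region beside Cd40 (15.01%). Animal 28HFB was low at the end of AABR07012329.1 (82.3%), and animal 22HFR was high at the Hcn2 end beside Polrmt (59.6%).

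In the paternal chow group, animal 8HFB was low at the 5S_rRNA copy (50.7%) and at the first Mir2964 region (27.8%). Animal 4HFB was low at the Phf13 end beside Thap3 (0.650%) and high at Scrt1 (18.0%). Animal 6HFB was high at the second region near RGD1308134 (3.53%) and low at AABR07012329.1 (91.0%). Over the 9 ends above 80%, the mean level of animal 28HFB (86.7%) stood below those of the other paternal HF animals.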

How the results depend on the processing

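Under every alternative run, 0 ends had an adjusted limma p below 0.05, and the mean difference over the ends stayed above 0, from 1.01 to 1.59 points when each animal was left out in turn. No mean difference in points exists on the logit scale. The count at an unadjusted p below 0.05 was 6 of the 42 ends with at least 15 CpGs and 16 of the 98 with a mean level of at least 5%, which are fewer regions. It was 58 on the logit scale, 57 with untrended variance, 50 with columns of the same leading number averaged, and 34 to 51 when an animal was left out. The share of ends with a higher mean in paternal HF was 78.6% with at least 15 CpGs, and 69.1% to 72.5% when an animal was left out.

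The sign turned in 7 of 1089 alternative values, each time by leaving out 1 animal, and the cause was not tested. On chromosome 2, the first 5_8S_rRNA region (main difference 1.40 points) ranged from -0.781 to 5.57, with -0.781 without 22HFB, -0.0442 without 28HFB, -0.4405 without 4HFB and -0.593 without 8HFB. The fourth (main -2.12) ranged from -4.22 to 0.982, the last without 6HFB. AABR07012329.1 (main -2.13) ranged from -3.09 to 0.332, the last without 28HFB, and the Cdh22 region beside Cd40 (main 2.75) from -0.0962, without 4HFB, to 6.54.

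No paired analysis was possible because the columns carry no replicate numbers that match the sample labels. Of the columns that share a leading number, deviations from the group means correlated at -0.358 (22HFB with 22HFR) and -0.0763 (6HFBB with 6HFB), against -0.391 to -0.104 for the other pairs within a group. The value for 6HFBB with 6HFB thus lay above that range. Deviations from a mean over the same 5 animals correlate negatively by construction, and whether such columns are littermates was not tested. Without read depth, low levels such as those under 5% cannot be given a counting error.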
